A study of Homo sapiens with 72 samples.

Results

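The genes described here are the inhibitors of the cyclin-dependent kinases and the D cyclins, which act on the same step of the cell cycle. They are 10 genes taken by name from the GENCODE annotation of hg38, of 20033 protein-coding genes in all. The 4 INK4 inhibitors are CDKN2A, CDKN2B, CDKN2C and CDKN2D. The 3 CIP/KIP inhibitors are CDKN1A, CDKN1B and CDKN1C, and the 3 D cyclins are CCND1, CCND2 and CCND3. The genes were measured by CUT&Tag, in which an antibody to a histone mark tethers a transposase that cuts and tags the DNA around the mark. The marks were H3K4me2, H3K4me3 and H3K27me3. Raji, a Burkitt's lymphoma cell line, and NALM6 and REH, both acute lymphocytic leukemia cell lines, were each left untreated or given 1 nM bryostatin, an activator of protein kinase C, overnight. All groups were grown in the same medium, and each line, treatment and mark has 3 replicates, which makes 54 libraries with a peak list. The labels number the replicates but do not say whether they were separate cultures, so the p-values below measure only the spread between these samples, which may be technical. The comparisons ask which of these genes carry each mark in each line, and whether bryostatin moved the marks.

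D cyclins bind CDK4 and CDK6, and the active kinases phosphorylate the retinoblastoma protein, which releases E2F factors and lets the cell enter S phase. INK4 proteins bind CDK4 and CDK6 and keep them from their cyclins, whereas CIP/KIP proteins bind cyclin-kinase complexes more broadly. CDKN2A encodes p16INK4a from an inner start and p14ARF from an upstream start, and p14ARF acts on MDM2 and so on p53. Loss of CDKN2A is frequent in precursor B-cell leukemia. H3K4me3 is found around the starts of active genes, H3K4me2 around starts and enhancers, and H3K27me3 is laid by Polycomb over repressed genes.

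The sequences before the starts that the results turn on are shown first. They come from RefSeq on GRCh38.p14, are the 250 bases before the start in the direction of the gene, and were the same as hg38 at these positions. Of the 10 genes, 7 matched, with 12 promoters; CDKN1C, CCND1 and CCND2 are named only. Capitals mark GGGCGG or its reverse complement CCGCCC, the core of a GC box, with overlapping matches also in capitals. The upstream and inner starts of CDKN2A and the start of CDKN2B are shown because H3K4 peaks stood at some of them and in Raji alone, CDKN2C because it was marked in every line, and CDKN1A because it had the lowest adjusted p under bryostatin.
CDKN2A upstream start, chr9:21995325-21995574, minus strand: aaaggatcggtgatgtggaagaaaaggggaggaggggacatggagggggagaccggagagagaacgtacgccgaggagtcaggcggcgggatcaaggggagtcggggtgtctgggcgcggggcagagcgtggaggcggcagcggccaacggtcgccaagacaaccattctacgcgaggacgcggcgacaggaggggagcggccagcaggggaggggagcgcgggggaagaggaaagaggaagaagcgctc
CDKN2A inner start, chr9:21974858-21975107, minus strand: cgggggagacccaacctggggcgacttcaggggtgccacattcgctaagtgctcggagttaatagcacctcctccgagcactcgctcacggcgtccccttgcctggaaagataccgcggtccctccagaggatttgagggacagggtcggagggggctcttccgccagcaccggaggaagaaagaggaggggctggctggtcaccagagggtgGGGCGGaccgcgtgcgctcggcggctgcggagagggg
CDKN2B, chr9:22009306-22009555, minus strand: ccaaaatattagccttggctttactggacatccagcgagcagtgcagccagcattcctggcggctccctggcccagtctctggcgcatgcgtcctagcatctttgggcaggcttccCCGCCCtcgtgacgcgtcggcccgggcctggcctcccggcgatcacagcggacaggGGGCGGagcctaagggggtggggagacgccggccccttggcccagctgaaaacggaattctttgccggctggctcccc
CDKN2C, chr1:50968456-50968705, plus strand: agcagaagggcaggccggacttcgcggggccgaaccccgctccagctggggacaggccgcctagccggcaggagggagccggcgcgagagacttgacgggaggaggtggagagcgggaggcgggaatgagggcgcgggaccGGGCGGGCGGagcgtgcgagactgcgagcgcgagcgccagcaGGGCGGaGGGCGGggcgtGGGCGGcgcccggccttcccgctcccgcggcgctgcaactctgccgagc
CDKN1A, chr6:36678464-36678713, plus strand: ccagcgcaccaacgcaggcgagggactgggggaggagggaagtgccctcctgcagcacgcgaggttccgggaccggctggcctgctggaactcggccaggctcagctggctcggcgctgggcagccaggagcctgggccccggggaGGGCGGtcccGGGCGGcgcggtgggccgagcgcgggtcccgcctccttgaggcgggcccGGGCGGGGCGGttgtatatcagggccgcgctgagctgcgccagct

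All 5 held more CpG than the median promoter. They held 24, 20, 18, 35 and 27 CpG in this order, and the median over 35116 promoters of this length was 11. At least 24 CpG were found in 23.7% of all promoters, at least 20 in 32.4%, at least 18 in 36.8%, at least 35 in 5.80% and at least 27 in 17.7%. GGGCGG, on either strand, was found 0, 1, 2, 5 and 4 times, and in 42.6% of all promoters. The inner start of CDKN2A, where no peak was called, thus held 1 match and the marked upstream start none. Other motifs were searched on both strands over the 12 promoters. CCAAT was found in 32.0% of all promoters and in those of CDKN1B, CDKN2D, CDKN2C at its innermost start, and CCND3 at both inner starts. CACGTG was found in 6.34% of all promoters and in the outer and innermost promoters of CDKN2C. TATAAA (10.7% of all promoters), TGANTCA (6.57%), TGACGTCA (1.65%) and TTTNGCGC (1.51%) were not found in these windows.

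Some libraries stood apart. The 48 libraries outside replicate 1 of NALM6 had 5.12 M to 47.9 M mapped reads, computed from the value of a single read. The 6 libraries of NALM6 replicate 1 were scaled in another way and had short peaks, and over all 54 libraries the number of peaks ran from 590 to 101702. Replicate 2 of untreated Raji for H3K27me3 had a peak at the start of 57.0% of all genes, and 38.2% of all genes had one in this Raji H3K27me3 library alone. It was the only Raji H3K27me3 library with peaks at the starts of CDKN2A, CDKN2C, CDKN2D and CCND3. Their H3K27me3 is therefore not counted as a mark below, since at least 4 of 6 libraries are asked for. The labelled cell type was checked by H3K4me3 peaks at the starts of the B-lineage genes CD22, CD79A, CD79B, PAX5, EBF1 and MS4A1. In Raji all 6 of these had a peak in 6 of 6 libraries, while MS4A1 had none in NALM6 or REH, and CD79A and CD22 had one in 3 and 4 of 6 NALM6 libraries. None of 7 T-cell, myeloid and epithelial genes had a peak in any of the 18 H3K4me3 libraries. Peaks on the Epstein-Barr virus sequence were found in 18 of 18 Raji libraries and in none of NALM6 and REH.

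A gene was counted as marked in a line when at least 4 of its 6 libraries had a peak that reached into the 1 kb on either side of an annotated start. In Raji 9 of the 10 genes had H3K4me2, against 53.4% of all protein-coding genes, and 8 had H3K4me3, against 52.6%. In REH the counts were 8, against 55.6%, and 7, against 47.8%. In NALM6 5 genes had H3K4me2, against 43.4% of all genes, and the same 5 had H3K4me3, against 43.5%, which is near the background. These 5, CDKN2C, CDKN2D, CDKN1A, CDKN1B and CCND3, were marked by both H3K4 marks in all 3 lines. All 5 had H3K4me2 in 18 of 18 libraries, as did 17.8% of all genes, and all but CDKN2D had H3K4me3 in 18 of 18, as did 21.8% of all genes. The other 5 genes differed between the lines. H3K27me3 marked CCND1 and CCND2 in Raji, where 4.18% of all genes had it, and CDKN1C, CCND1 and CCND2 in NALM6 (9.38% of all genes) and in REH (13.0%). These 8 combinations of gene and line fell to 3, CCND2 in each line, when every library was held to an equal number of peaks, and leaving out a replicate number gave 6 to 10. Of 26 other genes of this step, such as the E2F factors, CDK4, CDK6 and RB1, H3K4me3 marked 25 each in Raji and REH and 24 in NALM6, and H3K27me3 marked 0 in each line.

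**Figure D1:**
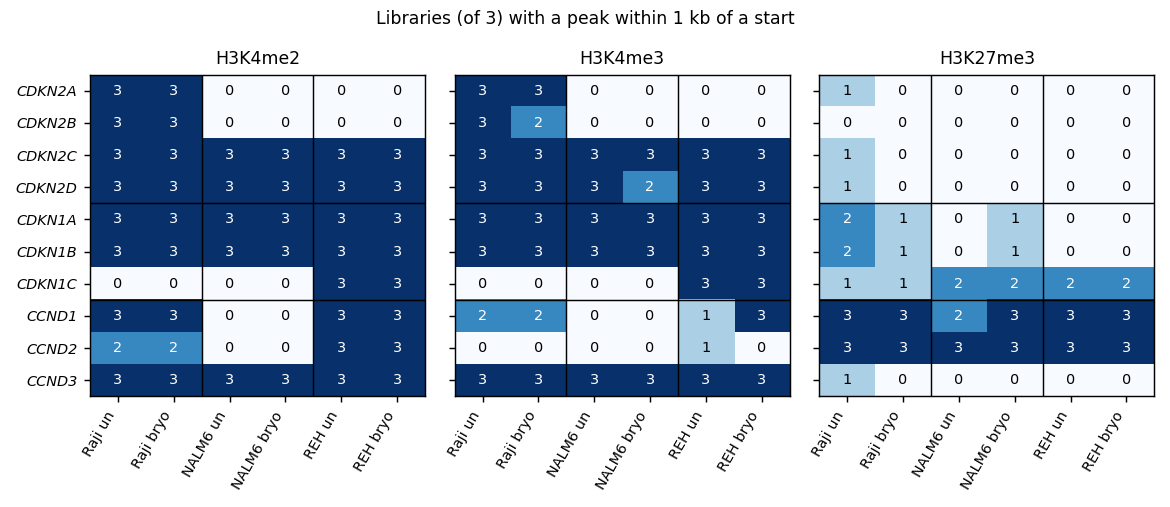
Number of libraries, of 3, with a start peak (within 1 kb), for the 10 genes (rows) by line and treatment (columns; un, untreated; bryo, bryostatin) and mark (panels); darker cells hold higher numbers. CDKN2A and CDKN2B had H3K4 peaks in Raji only, CDKN1C in REH only, and H3K27me3 gathered at CDKN1C, CCND1 and CCND2.

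CDKN2A and CDKN2B lie side by side on chromosome 9 and carried H3K4 marks in Raji alone. CDKN2A spans 21967752 to 21995301 on the minus strand. Its H3K4me2 region, at 21993101 to 21997490, covered the upstream start and was called in 6 of 6 Raji libraries and in 0 of 12 of NALM6 and REH, and its H3K4me3 region showed the same pattern. Both regions also cover a start of the noncoding gene CDKN2B-AS1, at 21994139 on the plus strand. The signal of the pair cannot be separated. The level of a region is its total signal divided by the median total signal, in the same library, of the regions called in all 18 libraries of the mark. For H3K4me2 it was 0.817, 0.939 and 0.811 in untreated Raji and 0.795, 0.737 and 0.811 with bryostatin. For H3K4me3 it was 1.25, 1.14 and 1.08 untreated and 1.13, 1.05 and 1.02 with bryostatin, and the ranges of the treatments overlapped for both marks. No peak of any mark was found within 1 kb of the inner starts, at 21974827 to 21974866, from which p16INK4a is made, in any of the 54 libraries.

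CDKN2B, which encodes the inhibitor p15INK4b, spans 22002903 to 22009305. Its H3K4me2 region, at 22008091 to 22009990, was called in the same 6 Raji libraries. The level was 0.440, 0.357 and 0.199 untreated and 0.314, 0.236 and 0.277 with bryostatin. H3K4me3 was 0.120, 0.105 and 0.0966 untreated and 0.0623 and 0.0850 in bryostatin replicates 1 and 2, with no peak in the other treated library. CDKN2B had no H3K27me3 start peak in any library, and CDKN2A had one only in the Raji library that stood apart. Among genes with H3K4me2 in 6 of 6 Raji libraries, 0.735% had no start peak of any mark in the 36 libraries of NALM6 and REH, as was seen for both CDKN2A and CDKN2B. For H3K4me3 this share was 0.697%, and CDKN2A was among these genes.

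The wider chr9p21 interval, from 1 Mb before to 1 Mb after both genes (20967752 to 23009305), was then searched. It held 228 peaks in Raji, in 17 of 18 libraries, 4 peaks in NALM6, in 3 of 18, and 0 in REH. Of the Raji peaks 32 were H3K4me2, 23 H3K4me3 and 173 H3K27me3, and the 12 H3K4 libraries had 2 to 11 each. The H3K27me3 peaks were mostly in 3 libraries, with 73 in untreated replicate 3, 71 in bryostatin replicate 3 and 24 in untreated replicate 2. The libraries of REH had 320 to 2116 peaks each on the whole of chromosome 9, and those of NALM6 42 to 3449. All 4 NALM6 peaks were in bryostatin-treated libraries. An H3K4me3 peak of 513 bp lay at 21782755 to 21783267 in replicate 1. H3K27me3 peaks of 2320 and 3030 bp, which began at 22146951 and 22661241, were in replicate 2, and a peak of 360 bp at 22835971 was in replicate 3. None of the 4 was called in a second library, and between the H3K4me3 peak and the nearest H3K27me3 peak lay 364 kb with no peak in any of the 18 NALM6 libraries. Those 364 kb hold MTAP, an enzyme of methionine salvage, with CDKN2A and CDKN2B, and no other protein-coding gene.

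In REH the stretch with no peak of any mark ran from 20663721 to 23219180, or 2555 kb, and held 22 protein-coding genes. Of the 11094 peak-free stretches of at least 50 kb in REH it was number 48 by length and number 4 by the number of genes. The NALM6 stretch was number 1120 by length and number 130 by genes, of 11678. Each of its edges was a peak of 1 library. The edge at 21783267 came from replicate 1, which carries another scale and short peaks, and the stretch for H3K4me3 alone has that edge too. Taken by single mark, the NALM6 stretch was 6826 kb for H3K4me2 (number 24 by length and 11 by genes, of 6557). It was 3607 kb for H3K4me3 (61 and 167, of 7606) and 2003 kb for H3K27me3 (110 and 19, of 9203). For REH it was 3519 kb for H3K4me2 (78 and 12, of 8771) and 7481 kb for H3K4me3 (17 and 11, of 6939). In Raji 4 of the 22 genes, KLHL9, MTAP, CDKN2A and CDKN2B, had H3K4me3 in at least 4 of 6 libraries, and 18 had no H3K4 start peak. Among those 18 were 16 interferon genes, of which 12 had an H3K27me3 start peak in at least 1 Raji library and none an H3K4 start peak in any line. FOCAD, whose body reaches into the stretch but whose start lies outside it, had H3K4me3 in 6 of 6 Raji libraries, as did MLLT3 outside the stretch, and neither had an H3K4 start peak in NALM6 or REH. MLLT3 had H3K27me3 in 3 of 6 REH libraries. A peak list gives no value where no peak was called, so DNA that is absent and DNA that carries none of the 3 marks cannot be told apart here.

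CDKN2C, on chromosome 1, and CDKN2D, on chromosome 19, encode p18INK4c and p19INK4d and were marked throughout. The H3K4me3 level at the inner starts of CDKN2C was 2.82, 2.10 and 2.20 in untreated Raji, 2.93, 2.39 and 2.24 in untreated NALM6, and 1.88, 1.94 and 1.81 in untreated REH, so Raji and NALM6 overlapped and REH was lower. The outer start of CDKN2C shares its region with FAF1, and H3K4me2 there was called in 15 of 18 libraries, missing in 3 NALM6 libraries that include both of replicate 1. The region of CDKN2D also covers a start of KRI1, and the signal of the pair cannot be separated. Its H3K4me3 level was 1.46, 1.21 and 1.36 in untreated Raji, 0.749, 0.939 and 0.925 in untreated NALM6, and 1.62, 1.77 and 1.81 in untreated REH, and the lines did not overlap.

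CDKN1A, on chromosome 6, encodes p21, a target of p53, and had both H3K4 marks in all 36 libraries. The H3K4me2 region, at 36675731 to 36684890, had a level of 1.04, 0.705 and 1.07 in untreated Raji, 3.10, 2.57 and 2.84 in untreated NALM6, and 1.74, 1.89 and 2.06 in untreated REH. For H3K4me2 the order was thus NALM6, REH and Raji, with no overlap. For H3K4me3, REH was highest, at 1.76, 1.87 and 1.94, and Raji (1.28, 1.09 and 1.15) lay within the range of NALM6 (1.37, 0.856 and 0.880). H3K27me3 was called at the start in 2 untreated and 1 treated Raji library and in 1 NALM6 library.

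CDKN1B, on chromosome 12, encodes p27 and had its H3K4 signal at the inner starts, at 12715058 to 12717861. The H3K4me2 level was 5.19, 4.61 and 5.44 in untreated Raji, 3.64, 3.35 and 2.99 in untreated NALM6, and 3.51, 3.83 and 3.41 in untreated REH. Raji lay above both other lines, which overlapped. This region is 15870 bp wide and also covers a start of APOLD1. An outer group of CDKN1B starts, shared with GPR19, had H3K4me2 in 4 of 6 Raji, 2 of 6 REH and 0 of 6 NALM6 libraries.

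CDKN1C, on chromosome 11, encodes p57 and is an imprinted gene. It had H3K4me2 and H3K4me3 at its starts in 6 of 6 REH libraries and in 0 of 12 of Raji and NALM6, a pattern seen for 2.37% of all genes with H3K4me2 and 0.904% with H3K4me3. The H3K4me2 level in REH was 1.23, 1.30 and 1.55 untreated and 1.14, 1.20 and 1.12 with bryostatin. H3K4me3 was 0.507, 0.468 and 0.363 untreated and 0.504, 0.408 and 0.385 with bryostatin. The treatments overlapped for H3K4me3 and not for H3K4me2, where the difference did not pass the test given below. H3K27me3 was called at the start in 4 of 6 NALM6 and 4 of 6 REH libraries. Its level in the called NALM6 libraries, which are all outside replicate 1, was 0.248 and 0.229 untreated and 0.193 and 0.234 treated. In REH it was 0.0418 and 0.0356 untreated and 0.0256 and 0.0399 treated. In REH the same start thus carried H3K4 marks and short H3K27me3 peaks of 980 to 2500 bp, against 6180 to 8970 bp in NALM6.

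CCND1, on chromosome 11, encodes cyclin D1. Its H3K4me2 region, at 69640281 to 69644580, had a level of 0.303, 0.303 and 0.244 in untreated Raji and 0.270, 0.349 and 0.313 with bryostatin. In REH it was 0.994, 0.970 and 0.907 untreated and 1.04, 0.996 and 1.01 with bryostatin. NALM6 had no peak in 6 libraries. H3K4me2 in 6 of 6 Raji and 0 of 6 NALM6 libraries was found for 2.69% of all genes, and in 6 of 6 REH and 0 of 6 NALM6 for 3.98%, which also include CCND2. H3K4me3 was called at CCND1 in 1 of 3 untreated REH libraries, at 0.261, and in 3 of 3 with bryostatin, at 0.415, 0.346 and 0.285. The untreated library with the peak was the deepest of the 6, with 27.9 M mapped reads, against 10.2 M to 24.3 M in the others. In Raji it was called in 2 libraries of each treatment, at 0.0670 and 0.0765 untreated and at 0.0873 or more with bryostatin.

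CCND2, on chromosome 12, encodes cyclin D2. Its H3K4me2 level in REH was 2.25, 2.41 and 2.18 untreated and 2.06, 2.08 and 1.93 with bryostatin. In Raji H3K4me2 was called in 4 of 6 libraries, at 0.130 to 0.248, and in NALM6 in none. H3K4me3 was called in 1 REH library only. The region also covers a start of the gene ENSG00000285901.

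H3K27me3 covered the starts of CCND1 and CCND2 in nearly every library. CCND2 had it in 18 of 18, as did 0.0899% of all genes, and CCND1 in 17, and 0.250% of all genes had it in at least 17. The level at CCND2 was 2.07, 0.998 and 0.972 in untreated Raji, 0.986, 0.555 and 0.528 in untreated NALM6, and 1.42, 1.34 and 1.94 in untreated REH. At CCND1 it was 0.426, 0.328 and 0.435 in untreated Raji and 0.777, 0.821 and 1.13 in REH, and in NALM6 replicates 2 and 3 it was 0.250 and 0.225. H3K4me2 and H3K27me3 were both found at CCND1 and CCND2 in Raji, where 1.10% of all genes had both, and at CCND1, CCND2 and CDKN1C in REH, where 4.70% had both. H3K4me3 and H3K27me3 were both found at CCND1 in Raji, against 0.589% of all genes, and at CCND1 and CDKN1C in REH, against 1.91%. When every library was held to 590 H3K27me3 peaks, CCND1 kept one in 1 of 6 libraries of each line. CDKN1C then had 0 of 6 in REH, and CCND2 had 6 of 6 in each line. Whether an H3K4 mark and H3K27me3 were on the same cells or chromosomes cannot be told apart in these bulk samples, nor can fewer marked cells and less mark per cell.

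**Figure D2:**
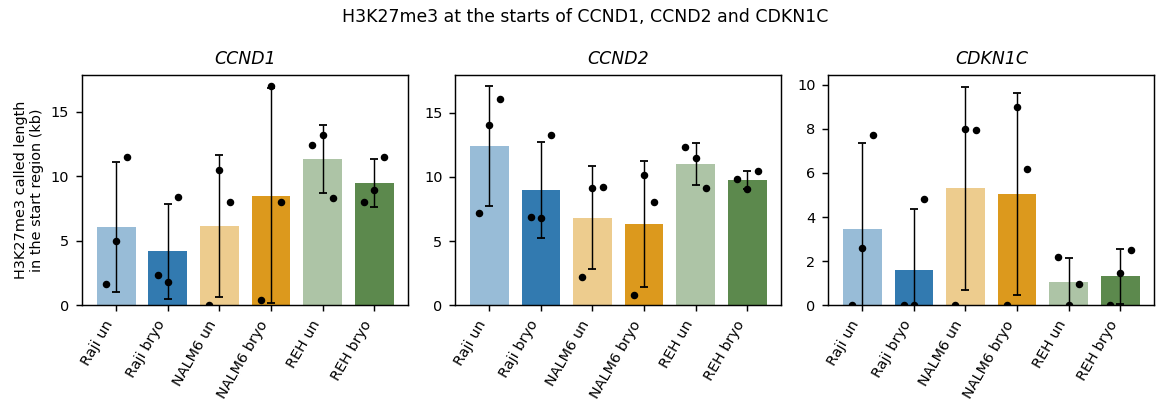
Length in kb called as H3K27me3 in the start regions of CCND1, CCND2 and CDKN1C, by line and treatment (un, untreated; bryo, bryostatin); points are the 3 libraries, bars their mean and whiskers the SD. The called length in REH at CCND2 was 9040 to 12370 bp, and NALM6 replicate 1 had short or no peaks at all 3 genes.

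CCND3, on chromosome 6, encodes cyclin D3 and was the D cyclin with H3K4 marks in all 3 lines. It has outer starts, which share their region with TAF8, and inner starts. At the inner starts the H3K4me2 level was 1.55, 2.00 and 1.64 in untreated Raji, 1.27, 2.32 and 2.70 in untreated NALM6, and 3.07, 3.56 and 3.35 in untreated REH. H3K4me3 there was 1.36, 1.39 and 1.38 for Raji, 1.70, 1.53 and 1.73 for NALM6, and 2.22, 2.37 and 2.76 for REH. REH was above both other lines at the inner starts for both marks, and Raji and NALM6 overlapped for H3K4me2. H3K27me3 was called at CCND3 only in the Raji library that stood apart.

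The untreated lines were compared by limma on log2 levels, over all regions called in all 6 libraries of a pair of lines, with Benjamini-Hochberg adjustment. Of 45 tests at these genes 19 passed the adjusted p of 0.05. The lines did not overlap in those 19, nor in some tests that did not pass, such as H3K4me2 at CDKN2D between Raji and REH (limma adjusted p = 0.190). Lack of overlap is therefore not counted as support for the calls. The share of all regions without overlap is not given here. Between Raji and REH, H3K4me2 was lower in Raji at CCND1, by 3.40-fold (log2 difference -1.76 ± 0.14 SE, limma adjusted p = 1.72e-06), and at CDKN1A, by 2.05-fold (-1.03 ± 0.16, adjusted p = 0.000221). It was also lower at the inner starts of CCND3 (-0.95 ± 0.12, limma adjusted p = 4.47e-05) and at the outer ones (-0.88 ± 0.23, adjusted p = 0.00796). At the outer starts the called length was 1660 to 7290 bp in untreated Raji and 8690 to 13340 bp in REH, and by mean signal per called base the sign turned to 0.23 (limma adjusted p = 0.365). By maximum signal the difference there was -0.12 (limma adjusted p = 0.642). The called length at CCND1 was 980 to 1390 bp in Raji and 3240 to 3510 bp in REH, and by mean signal per base its difference was -0.61 (limma adjusted p = 0.0166). At CDKN1B it was 1.42-fold higher in Raji (0.50 ± 0.10, limma adjusted p = 0.00124), and with no centring this call was lost (0.15, adjusted p = 0.560). Of all regions 47.3% passed in this comparison, and 5 of 8 tests at these genes. The untreated H3K4me2 libraries had 6.70 M to 13.9 M mapped reads in Raji and 13.7 M to 18.8 M in REH, and the part of depth in these differences was not tested.

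For H3K4me3, Raji was lower than REH at the inner and outer starts of CCND3 (log2 differences -0.83 ± 0.09 SE and -0.47 ± 0.12), at CDKN1A (-0.67 ± 0.08) and at CDKN2D (-0.37 ± 0.09), and higher at CDKN2C (0.33 ± 0.11), with limma adjusted p from 4.28e-05 to 0.0290. These were 5 of 7 tests, and 50.5% of all regions passed. By mean signal per called base the calls at the inner and outer starts of CCND3 and at CDKN2D were lost (limma adjusted p = 0.994, 0.840 and 0.817). Those at CDKN1A (-1.01, limma adjusted p = 0.000801) and CDKN2C (0.52, adjusted p = 0.0190) passed on that measure too. By maximum signal the call at the inner starts of CCND3 was lost (-0.27, limma adjusted p = 0.365). With no centring those at its outer starts, CDKN2D and CDKN2C were lost (0.152, 0.188 and 0.811). The call at CDKN2C was lost without any 1 of the 3 REH libraries (adjusted p 0.0556 to 0.0894). H3K27me3 at CCND1 was 2.28-fold lower in Raji (-1.19 ± 0.23, limma adjusted p = 0.00282), and 64.2% of all regions passed. With mean signal per called base in place of total signal, this difference was -0.05 (adjusted p = 0.865), and without the Raji library that stood apart it was -1.06 (0.0115). The called length at CCND1 was 1630 to 11520 bp in untreated Raji and 8300 to 13230 bp in REH.

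Between Raji and NALM6, H3K4me2 at CDKN1A was 3.07-fold lower in Raji (log2 difference -1.62 ± 0.22 SE, limma adjusted p = 0.00177) and at CDKN1B 1.53-fold higher (0.61 ± 0.15, adjusted p = 0.0224), with 19.9% of all regions called. H3K4me3 at CDKN2D was 1.55-fold higher in Raji (0.63 ± 0.16, limma adjusted p = 0.0305), with 20.2% of all regions called. The call at CDKN1B was lost without NALM6 replicate 2 or 3 or Raji replicate 1 or 3 (adjusted p 0.0616 to 0.114), and that at CDKN2D without any library but NALM6 replicate 1 (0.0603 to 0.129). By mean signal per base the differences at CDKN1B (0.40) and CDKN2D (0.53) did not pass in limma. By maximum signal 1 region at these genes passed for H3K4me2 and 0 for H3K4me3. With no centring no region at all passed between these lines for any of the 3 marks. Without NALM6 replicate 1, which carries another scale, the differences at CDKN1A, CDKN1B and CDKN2D were -1.55, 0.68 and 0.52 (adjusted p = 0.000145, 0.00120 and 0.00298). For H3K27me3, where 30.7% of all regions were called, CCND2 had a difference of 0.93 ± 0.40 (limma adjusted p = 0.0976), without NALM6 replicate 1 of 1.22 (adjusted p = 0.0210), and without the Raji library that stood apart of 1.10 (0.132). The median log2 difference over all 150 regions tested was itself 0.69, with 38 called higher in Raji and 8 lower. The value at CCND2 is therefore not read as particular to this gene.

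Between NALM6 and REH, H3K4me2 at CDKN1A was 1.50-fold higher in NALM6 (log2 difference 0.58 ± 0.15 SE, limma adjusted p = 0.0444) and at the outer starts of CCND3 2.69-fold lower (-1.43 ± 0.33, adjusted p = 0.0319), with 11.9% of all regions called. H3K4me3 was lower in NALM6 at CDKN1A (-0.88 ± 0.20, limma adjusted p = 0.0469) and at CDKN2D, by 2.00-fold (SE 0.14 on the log2 scale, adjusted p = 0.00866), with 7.49% called. CDKN1A was therefore higher in NALM6 than in REH for H3K4me2 and lower for H3K4me3. Both CDKN1A calls were lost without any library but NALM6 replicate 1 (adjusted p 0.0752 to 0.191), and without that replicate they were 0.52 (adjusted p = 0.00205) and -1.10 (adjusted p = 1.02e-06). The call at CDKN2D was lost without any 1 REH library (0.0566 to 0.0620). That at CCND3 was lost without any 1 REH library or NALM6 replicate 3 (0.0676 to 0.140). By mean signal per base the sign at CCND3 turned to 0.23 (limma adjusted p = 0.683), and the calls for H3K4me2 at CDKN1A (0.19, adjusted p = 0.687) and H3K4me3 at CDKN2D (-0.59, adjusted p = 0.123) were lost. With no centring the H3K4me2 difference at CDKN1A turned to -0.89, and no region at all passed for either H3K4 mark. H3K27me3 at CCND2 was 2.34-fold lower in NALM6 (-1.23 ± 0.30, limma adjusted p = 0.00964), and 61.3% of all regions were called. Without NALM6 replicate 1 the differences at CCND3, CDKN2D and CCND2 were -1.06, -0.89 and -1.52 (adjusted p = 9.47e-05, 5.75e-06 and 0.000600).

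**Figure D3:**
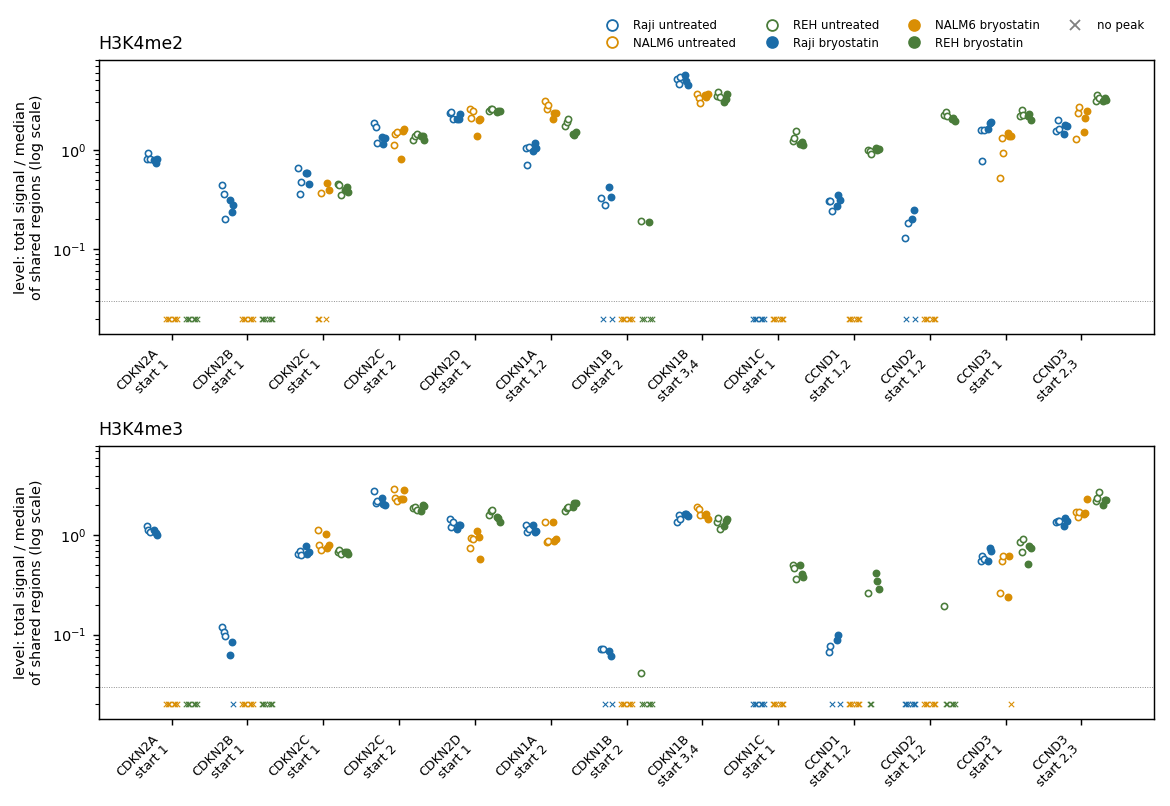
Level (total signal of the region divided by the library's median over shared regions, log axis) of H3K4me2 and H3K4me3 at the start regions of the 10 genes; open circles are untreated and filled circles bryostatin-treated libraries of each line, and crosses below the dotted line are libraries with no peak. CDKN2A and CDKN2B have circles for Raji only and CDKN1C for REH only, and CCND1 has H3K4me2 at 0.244 to 0.349 in Raji and 0.907 to 1.04 in REH.

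Bryostatin was tested in the same way within each line and mark, and none of 53 tests at these genes passed the adjusted p in limma. At an unadjusted p under 0.05 there were 6, all in REH: 3 of 10 for H3K4me2, 2 of 8 for H3K4me3 and 1 of 2 for H3K27me3. The counts over all regions of REH were 1009 of 10604 (9.52%), 746 of 7182 (10.4%) and 70 of 8100 (0.864%). Over all regions, 1.05% passed for H3K4me2 and 1.52% for H3K4me3 in REH, 0.0221% for H3K4me3 in Raji, and 0% in the other 6 comparisons. These fits did not pair the samples by replicate number. With the replicate as a block, 112 of 9032 regions passed for H3K4me3 in Raji, with 0 at these genes. In REH 299 of 10604 passed for H3K4me2 and 165 of 7182 for H3K4me3, and in NALM6 0 for each mark. Without the block, the lowest adjusted p at these genes was that of H3K4me2 at CDKN1A in REH. Its level was 1.74, 1.89 and 2.06 untreated and 1.44, 1.39 and 1.52 with bryostatin, so every treated library was below every untreated one. Lack of overlap between treatments is not counted as support here or below, since its share over all regions is not given. The log2 difference at CDKN1A was -0.38 ± 0.08 SE, or 1.30-fold lower (limma adjusted p = 0.0536). In these libraries the replicate numbers paired the samples, and with the replicate as a block the adjusted p was 0.0104. These libraries had 13.7 M to 18.8 M mapped reads untreated and 18.2 M to 22.8 M treated, and the part of depth was not tested. The called length was 4170 to 6640 bp untreated and 3070 to 5490 bp with bryostatin, and by mean signal per called base the difference was 0.13. Over 15 alternatives the adjusted p ran from 0.0104 to 0.956. It passed without untreated replicate 1 (0.0497) or without bryostatin replicate 3 (0.0208).

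H3K4me3 at the same gene had the other sign in REH, from 1.76, 1.87 and 1.94 to 1.91, 2.12 and 2.12 (log2 difference 0.14 ± 0.06 SE, limma adjusted p = 0.438). H3K4me3 at CDKN2D in REH was 1.62, 1.77 and 1.81 untreated and 1.53, 1.50 and 1.37 treated (-0.24 ± 0.06, limma adjusted p = 0.109), and without untreated replicate 1 the adjusted p was 0.0469. H3K4me2 in REH was below the untreated range at CCND2 (-0.17 ± 0.07, limma adjusted p = 0.460) and at CDKN1C (-0.23 ± 0.09, adjusted p = 0.457). H3K27me3 at CCND1 in REH went from 0.777, 0.821 and 1.13 to 0.549, 0.621 and 0.586, with no overlap (-0.62 ± 0.20, limma adjusted p = 0.905). H3K4me2 at the outer starts of CCND3 was 1.60, 0.771 and 1.59 in untreated Raji and 1.62, 1.84 and 1.90 with bryostatin (0.51 ± 0.25, limma adjusted p = 0.736). The untreated Raji libraries for H3K4me2 had 6.70 M to 13.9 M mapped reads and the treated ones 15.6 M to 18.8 M, and the lowest value, 0.771, was in the shallowest; the part of depth was not tested. In NALM6 the level at these starts was 0.514, 1.32 and 0.929 untreated and 1.47, 1.37 and 1.38 treated (0.71 ± 0.36, limma adjusted p = 0.999), where the values outside replicate 1 were 1.32 and 0.929 against 1.37 and 1.38. In both lines the treated libraries were above the untreated ones, and in each the untreated values differed widely among themselves. At CDKN2A in Raji the differences were -0.13 ± 0.14 for H3K4me2 and -0.12 ± 0.09 for H3K4me3, with limma adjusted p = 0.829 and 0.959.

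**Figure D4:**
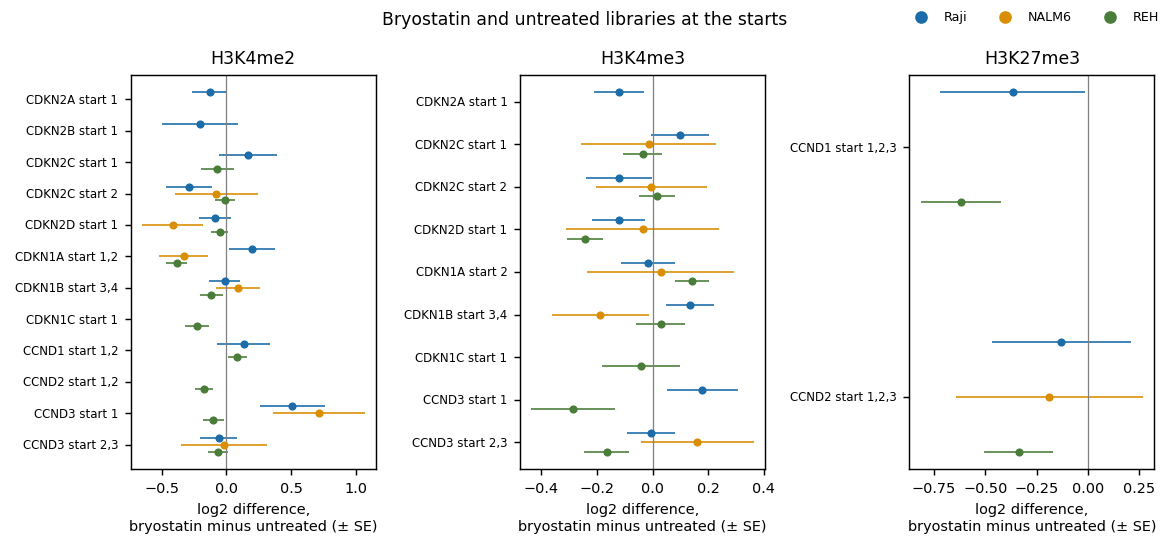
Log2 difference of the level, bryostatin minus untreated, with its SE, at each start region tested in each line, by mark; only regions called in all 6 libraries of the line appear, and the panels have different horizontal scales. Most points lie within 0.4 of 0, and the outer starts of CCND3 in Raji and NALM6 (0.51 and 0.71 for H3K4me2) and CCND1 in REH (-0.62 for H3K27me3) lie farthest out.

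The responses of the lines were also compared with each other, by the interaction of line and treatment, in 39 tests for the H3K4 marks. None passed in limma, and 2 had an unadjusted p under 0.05, both for H3K4me2. Over all regions this held for 470 of 7253 (6.48%) between Raji and REH and 104 of 3830 (2.72%) between NALM6 and REH, with 1 of the 2 in each. The lowest adjusted p was that of H3K4me2 at CDKN1A between Raji and REH (log2 difference of the responses 0.58 ± 0.20 SE, limma adjusted p = 0.692). Of all regions, 0.0276% passed for H3K4me2 between Raji and REH and 0% in the other 5 comparisons.

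Over the gene bodies, the summed signal of the treated and the untreated libraries did not overlap in 10 combinations of gene, line and mark. The signal was lower with bryostatin for H3K4me2 at CDKN2D and CDKN1A in NALM6, against 3.20% of genes with any peak, and at CDKN1A and CDKN1C in REH, against 4.05%. For H3K4me3 it was lower at CDKN2A and CDKN2D in Raji, against 4.65%, lower at CCND3 in REH, against 5.21%, and higher at CCND1 in REH, against 5.43%. For H3K27me3 it was lower at CCND1 and CCND2 in REH, against 3.65%. These bodies include the starts, and with the start windows left out 6 combinations remained. The shares above are for whole bodies, so these 6 have no share of all genes beside them. No test was made on them.

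The 26 other genes of the step were read from the same fits. Bryostatin moved none of them past the adjusted p in any of the 9 comparisons, in limma, with 10 to 25 genes tested for the H3K4 marks and none for H3K27me3. Between untreated Raji and REH, H3K4me2 was higher in Raji at 9 and lower at 2 of 22 genes tested. H3K4me3 was higher at 5 and lower at 10 of 25. Of all regions 47.3% and 50.5% were called in these comparisons, 2290 higher and 1438 lower in Raji for H3K4me2, and 1576 higher and 1810 lower for H3K4me3. That balance moved with the scaling: with no centring it was 687 higher and 2027 lower, and 198 higher and 890 lower. TFDP1, a partner of the E2F factors, was higher in Raji for both marks (log2 differences 1.17 ± 0.16 and 1.09 ± 0.08 SE, limma adjusted p = 8.67e-05 and 6.23e-06), as was E2F5 (1.03 ± 0.13 and 1.47 ± 0.12). CDK6, the partner of the D cyclins, was higher in Raji for H3K4me2 (1.15 ± 0.15) and lower for H3K4me3 (-0.37 ± 0.09). CCNE1, which encodes cyclin E1, was lower in Raji for H3K4me3 (-1.01 ± 0.10), and CDC25A, a phosphatase that activates CDK2, was higher (1.12 ± 0.10). CDK4 was higher in Raji than in REH (0.48 ± 0.08) and than in NALM6 (0.70 ± 0.14) for H3K4me3. Raji and NALM6 differed at 2 of 11 genes for H3K4me2, CDK6 and E2F1, both higher in Raji, and at 6 of 24 for H3K4me3, with 3 in each direction. Of all regions 19.9% and 20.2% were called there. NALM6 and REH differed at 0 of 10 for H3K4me2 and 2 of 24 for H3K4me3, CDC25A (1.60 ± 0.23) and TFDP2 (0.59 ± 0.13), both higher in NALM6. The shares of all regions were 11.9% and 7.49%.

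For the genes that were marked by H3K4me3 in some line and in no library of another, the genes of most similar pattern were found by the correlation of start signal over the 18 H3K4me3 libraries. For CDKN2A these were PAWR, MCOLN2 and PHKA1 (Pearson r = 0.999 to 1.00), which had peaks in 6 of 6 Raji libraries only. For CDKN2B they were WDR17, ANK2 and ENO4 (0.988 to 0.995), and for CDKN1C RNF152, HAAO and ST8SIA5 (1.00), which had peaks in 6 of 6 REH libraries only. For CCND1 they were PHOSPHO1, SALL1 and IL1RAP (0.912 to 0.918), each called in 4 of 6 REH libraries and in none of NALM6. In Raji they were called in 1, 0 and 0 of 6 libraries, against 4 of 6 for CCND1, so they differ from it there. The libraries of a line share their line and depth, so these values describe presence by line.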

How the data were processed

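The deposited files were lists of SEACR stringent peaks, with a total and a maximum signal per peak; per the labels and the methods, the authors demultiplexed with bcl2fastq, trimmed with Trim Galore, aligned to hg38 with Bowtie2 and computed coverage in RPKM (versions not given in the sources used here). The signal of 48 libraries was in whole multiples of a single read, and that of the 6 NALM6 replicate 1 libraries was scaled in a way not given in the sources used here. The 18 IgG samples were not used here. Starts came from GENCODE 44, and starts whose 1 kb windows overlapped were grouped.

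Peaks of the 18 libraries of a mark were merged where they overlapped, into 29883 (H3K4me2), 16277 (H3K4me3) and 132644 (H3K27me3) regions. Total signal was divided by the library's median over regions called in all 18 (3214, 3505 and only 48), and log2 values were tested with limma 3.58.1 (eBayes with trend, R 4.3.3) over regions called in all 6 libraries, with Benjamini-Hochberg adjustment at 0.05, tested on simulated data. The signal is not a count, so no count model was used. A library contributes no value, not 0, where it has no peak, and such regions were left out of the tests. At most 0.459% of peaks were identical between libraries of a mark. Likeness used log2(signal + 0.1).

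The named genes were the 10 genes, those of the 26 that passed, neighbours on chromosome 9 and the 3 most alike genes. The genes and lists were chosen with earlier results of these data known, and 1 marker gene is not reported here. Replicate numbers were taken to pair samples where every pair's deviations correlated above 0.1: treated and untreated Raji for H3K4me3, NALM6 for all 3 marks, and REH for H3K4me2 (0.151 to 0.213) and H3K4me3; not for Raji H3K4me2, for H3K27me3 in Raji or REH, or between lines. Alternatives were other signal measures, scalings, filters, merging, the replicate block, windows, equal peak numbers and leaving out each library. 2 further ones, presence without NALM6 replicate 1 and without the Raji library that stood apart, were chosen after seeing the data.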

Additional observations from a re-analysis of the deposited data

How the results depend on the processing

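The count of bryostatin differences at the 10 genes was 0 and became 1 with no centring, with quantile normalization, with regions called in at least 4 of 6 libraries, with regions merged over the 6 libraries compared, and with the replicate block, each time H3K4me2 at CDKN1A in REH. Leaving out each library gave 0 to 2, with 1 without REH bryostatin replicate 3 and 2 without REH untreated replicate 1. Over all regions, the bryostatin calls for H3K4me2 in REH were 111 of 10604. They were 126 with no centring, 140 with quantile normalization and 299 with the replicate block. For H3K4me3 in Raji they went from 2 of 9032 to 19 with no centring, 15 with quantile normalization and 112 with the replicate block, with 0 at these genes each time. The 19 line differences became 9 by mean signal per base, 8 with no centring and 29 without NALM6 replicate 1, and leaving out each library gave 14 to 29. With the replicate block there were 17, and the numbers did not pair the lines. The block ended the calls at CDKN2D between Raji and NALM6 (adjusted p = 0.0959) and at CDKN1A between NALM6 and REH (0.108 for H3K4me2 and 0.116 for H3K4me3), and added CCND2 H3K27me3 between Raji and NALM6 (0.0439). In that last comparison the median log2 difference over all 150 regions was 0.69. The calls over all regions moved too. For H3K4me3 between Raji and REH, 3386 of 6709 became 1552 by mean signal per base and 1088 with no centring. With no centring 0 regions passed in each line comparison with NALM6. Shares over all regions are not given for fits that leave out a library, so the 29 and the range of 14 to 29 are not read as results about these genes. Of the 19, 4 were called under every alternative run: H3K4me2 at CCND1, CDKN1A and the inner starts of CCND3, and H3K4me3 at CDKN1A, all between Raji and REH. Response differences stayed at 0 under all 3 alternatives.

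By mean signal per base the sign turned for CDKN1A H3K4me2 under bryostatin in REH (0.13), for CCND3 H3K4me2 at the outer starts between Raji and REH (0.23) and between NALM6 and REH (0.23), and for CCND3 H3K4me3 at the inner starts between NALM6 and REH (0.13). With no centring it turned between NALM6 and REH for CDKN1A H3K4me2 (-0.89), CDKN1B H3K4me3 (-0.87) and CDKN2C H3K4me3 at the inner starts (-0.87); there the median of all regions itself moved to -1.47 for H3K4me2 and -1.33 for H3K4me3, since NALM6 replicate 1 carries another scale. The cause of the other changes was not tested.

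Genes marked, summed over the 3 lines, came to 22 (H3K4me2), 20 (H3K4me3) and 8 (H3K27me3). With equal numbers of peaks per library H3K27me3 marked 3. Leaving out a replicate number gave 21 to 22, 18 to 20 and 6 to 10. Gene body combinations fell from 10 to 6 with the start windows left out, where the share of all genes is not given. In the chr9p21 interval the NALM6 libraries with a peak went from 3 to 15 with 3 Mb on each side, and to 0 with the upper 0.5 of peaks by signal or with equal numbers of peaks. Those of REH went from 0 to 18 with 3 Mb. H3K27me3 levels rest on 48 shared regions, and short peaks in NALM6 replicate 1 limit what can be called there.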
